A study of Mus musculus with 8 samples.

Results

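Wild-type granulocyte progenitors (GPs) sorted from mouse bone marrow into cells that carry the cytokine receptor Flt3 (Flt3+) and cells that do not (Flt3-) were compared across all genes measured. The members are the arrays titled as wild-type Flt3+ GPs, 2 arrays, and wild-type Flt3- GPs, 2 arrays, which make up 4 of the 8 arrays of the study. The other 4 arrays are labelled as the same sorted populations from mice deficient for Irf8 (Irf8KO) and serve below as a second setting of the same sort. In each group 1 array belongs to experiment 1 and 1 to experiment 2. All groups are primary cells with no treatment after isolation. The labels do not give the animals' strain, age or number, whether animals were pooled, or the other surface markers of the gate. The p-values below therefore reflect no more than the spread between these arrays, and that spread may be technical.

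Neutrophils arise in bone marrow from multipotent progenitors that pass through a granulocyte-monocyte stage. As they commit, C/EBP factors and Gfi1 replace stem cell and lymphoid transcription factors, and the cells fill azurophil granules with proteases that are made and folded in the endoplasmic reticulum. Flt3 is a receptor tyrosine kinase of early, lymphoid-primed and dendritic cell progenitors, and it is lost as cells commit to granulocytes.

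Each array held 59305 non-control spots, of which 54.9 to 60.1% lay well above background, and the number of arrays limits the precision. Each value is a log2 signal after subtraction of its array's 75th percentile, and a difference is Flt3+ minus Flt3- on that scale. The values of different genes come from different probes and are not comparable with each other. Across genes, the arrays of one group correlated at r = 0.9958 in Flt3+ GPs and 0.9962 in Flt3- GPs. "Passed the test" means an adjusted p under 0.05 in limma, over the 14106 genes tested, and "2-fold" means passed with a difference of at least 1. Of all genes tested, 8727 passed (61.9%), 3193 higher (22.6%) and 5534 lower (39.2%) in Flt3+ GPs. At 2-fold there were 1835 genes, 1099 higher (7.79%) and 736 lower (5.22%). The difference had a median of -0.12 across all genes, against which every list median below is to be read. After quantile normalization that median was -0.01, and the genes that passed split into 4198 higher and 4121 lower. In bulk samples, fewer cells of a type and less RNA per cell cannot be told apart.

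The sort was visible in its own gene. Flt3 read 6.21 and 6.21 on the Flt3+ arrays against 1.69 and 1.66 on the Flt3- arrays, a difference of 4.54 (SE 0.0381, adjusted p = 1.89e-07). Kit, the stem cell factor receptor of progenitors, read 4.99 and 5.01 on the Flt3+ arrays against 4.95 and 4.89 on the Flt3- arrays, and its difference of 0.08 did not pass the test (adjusted p = 0.177), although after quantile normalization it stood at 0.39 (adjusted p = 0.000417). Cd34, a surface sialomucin of progenitors, read 7.56 and 7.57 on the Flt3+ arrays against 6.79 and 6.73 on the Flt3- arrays, a difference of 0.81 (SE 0.0462, adjusted p = 4.29e-05). Both populations thus carried the progenitor transcripts Kit and Cd34, and Flt3 separated them without overlap. The other granulocyte-monocyte progenitor markers examined, Fcgr3, Prtn3, Ctsg and Mpo, were lower in Flt3+ GPs (-4.6, -2.78, -1.92 and -0.71).

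Other genes mark the ends of the comparison. Dntt, whose enzyme adds untemplated bases to antigen receptor genes in lymphoid precursors, read 6.81 and 6.91 on the Flt3+ arrays against -1.17 and -1.20 on the Flt3- arrays, 263-fold higher in Flt3+ GPs (8.04, SE 0.063, adjusted p = 1.89e-07). Cebpe, the C/EBP factor of granulocyte maturation, read -0.16 and -0.03 on the Flt3+ arrays against 5.86 and 5.90 on the Flt3- arrays, 62.9-fold lower in Flt3+ GPs (-5.97, SE 0.057, adjusted p = 2.7e-07). Elane, neutrophil elastase, read 3.66 and 3.58 on the Flt3+ arrays against 8.36 and 8.25 on the Flt3- arrays, a difference of -4.68 (SE 0.0542, adjusted p = 5.31e-07). For each of these genes the arrays of a group lay close together and the groups did not overlap, as they did not in 80.3% of all genes tested. Elane RNA was well above background in both populations.

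**Figure D1:**
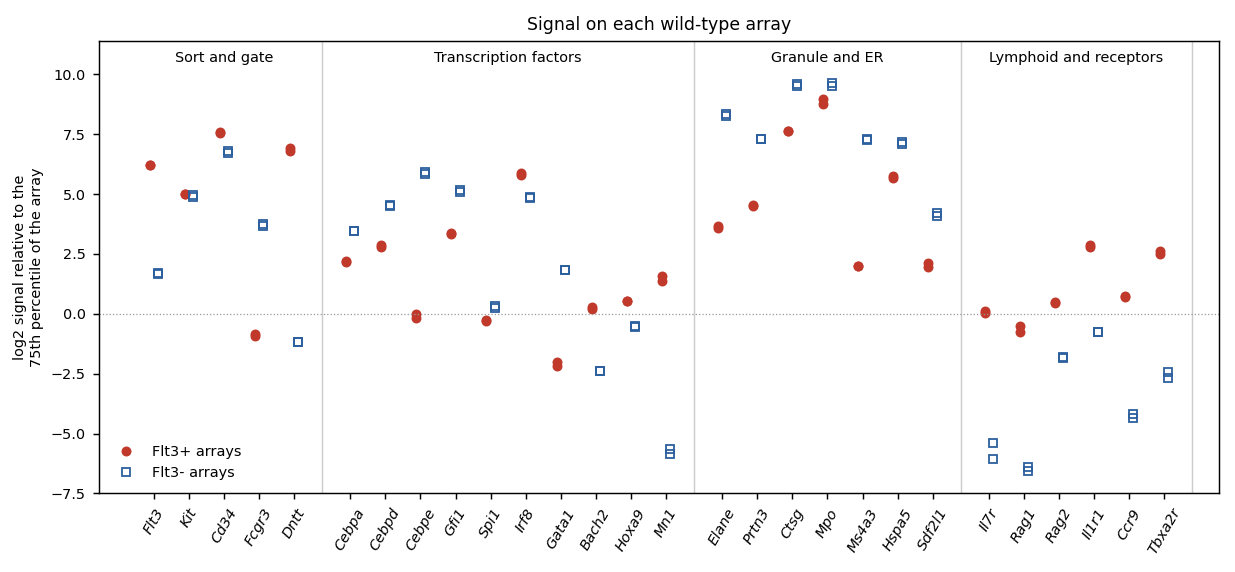
Log2 signal minus the array's 75th percentile (vertical axis) on the 2 Flt3+ arrays (filled circles) and the 2 Flt3- arrays (open squares) of wild-type mice, for genes of 4 groups. Flt3, Dntt, Il7r, Rag1 and Mn1 lie higher on both Flt3+ arrays, Cebpe, Elane, Ms4a3 and Hspa5 lie higher on both Flt3- arrays, and the Kit values of both populations lie between 4.89 and 5.01.

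The promoters of 4 genes are shown for sequence motifs by which their groups are known to be regulated. Elane and Prtn3 stand for the azurophil granule genes, Hspa5 for the endoplasmic reticulum genes and Ifit3 for the interferon-stimulated genes. The windows are the 160 bases before the annotated start on the RefSeq assembly GRCm38.p6, plus strand, at chr10:79886152-79886311, chr10:79879507-79879666, chr2:34771930-34772089 and chr19:34583369-34583528. Capitals mark AGGAAGT (PU.1) and CAACGG (MYB) in the first pair, the endoplasmic reticulum stress element in Hspa5 (CCAAT, any 9 bases, then CCACG), and the interferon-stimulated response element in Ifit3 (GAAA, any 2 bases, then GAAA), which lies there on the other strand.
Elane: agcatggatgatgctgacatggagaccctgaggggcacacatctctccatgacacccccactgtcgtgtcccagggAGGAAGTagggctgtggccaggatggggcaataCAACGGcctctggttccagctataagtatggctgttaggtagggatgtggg
Prtn3: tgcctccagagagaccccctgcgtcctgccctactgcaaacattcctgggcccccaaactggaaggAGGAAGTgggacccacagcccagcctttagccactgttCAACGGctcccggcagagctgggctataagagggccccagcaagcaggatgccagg
Hspa5: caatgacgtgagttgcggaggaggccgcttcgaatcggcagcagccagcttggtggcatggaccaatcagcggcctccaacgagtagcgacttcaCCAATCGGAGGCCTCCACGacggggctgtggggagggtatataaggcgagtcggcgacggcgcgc
Ifit3: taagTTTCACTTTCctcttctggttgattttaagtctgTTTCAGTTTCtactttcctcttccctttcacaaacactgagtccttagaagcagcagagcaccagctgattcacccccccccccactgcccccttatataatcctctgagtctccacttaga
The letters of the PU.1 and MYB motifs were chosen after the Elane and Prtn3 windows had been read, so their matches there are a description only. Hspa5 was chosen for display after its values were seen.

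Motifs were searched on both strands in the 250 bases before the start of all 27025 genes with a promoter in the table. The endoplasmic reticulum stress element lay in 8 of the 46 tested genes of the reticulum list with a promoter (17.4%) and in 0.13% of all promoters. The 8 genes were Hspa5, Hsp90b1, Calr, Canx, Creld2, Dnajc3, Ero1b and Pdia6, which encode chaperones, lectins, foldases and their helpers. The shorter form (ATTGG, any 1 base, then CCACG) lay in 1 of the 46. The interferon-stimulated response element lay in 19 of 38 interferon-stimulated genes (50%) and in 3.46% of all promoters. AGGAAGT lay in 9 of 23 azurophil genes (39.1%) against 8.80% of all, CAACGG in 2 of 23 against 4.68%, and the C/EBP motif (TTGC, any 2 bases, then AA) in 4 of 23 (17.4%) against 10.8%. The 2 azurophil genes that held the MYB motif were Elane and Prtn3, and both also held the PU.1 motif. The letters of both motifs were chosen on these genes. Their azurophil shares are therefore not independent of that choice and are a description only. None of the motif matches shows binding, and a window without a match says only that the letters are not there. The letters do not overlap between motifs in the windows shown.

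Transcription factors were grouped by the lineage they are known for. Of 21 tested neutrophil factors 13 were lower and 4 higher in Flt3+ GPs, 7 and 2 of them at 2-fold, with a list median of -0.55. Besides Cebpe, the C/EBP family members Cebpa, Cebpb and Cebpd differed by -1.28, -1.35 and -1.70. Gfi1, the zinc finger repressor needed for neutrophil commitment, read 3.35 and 3.38 on the Flt3+ arrays against 5.17 and 5.10 on the Flt3- arrays, a difference of -1.77 (SE 0.0658, adjusted p = 9.15e-06). A pair of nuclear receptors of the list went the other way, Rara, the retinoic acid receptor alpha, at 2.34 and Vdr, the vitamin D receptor, at 1.14. Spi1, which encodes PU.1, was lower by less than 2-fold (-0.55).

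Of 25 monocyte and dendritic cell factors 17 were higher and 3 lower, with 10 higher and 0 lower at 2-fold. Irf8, the factor that directs monocyte and dendritic cell fate, read 5.80 and 5.87 on the Flt3+ arrays against 4.85 and 4.88 on the Flt3- arrays, a difference of 0.97 (SE 0.051, adjusted p = 3.14e-05). Tcf4, the E protein of plasmacytoid dendritic cells, differed by 1.58, and Klf2, a factor of quiescent lymphocytes and monocytes, by 2.65. Irf4 was at least 2.97-fold higher and Maf at least 2.46-fold higher in Flt3+ GPs, both not well above background on either Flt3- array. A fold given as "at least" sets the brighter group against the lowest signal well above background, or the probe's own signal if that was higher. Smaller differences were those of Id2 (0.64), Klf4 (0.30) and Zeb2 (-0.50). Klf4 lost its call under 8 of the 14 alternatives, among them the replicate block (adjusted p = 0.0561) and leaving out Flt3+ replicate 2 (0.23) or Flt3- replicate 1 (0.21), and Zeb2 turned to 0.27 with no call (adjusted p = 0.539) when all its probes were averaged.

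Lymphoid factors moved mostly with Flt3. Of 26 tested, 17 were higher and 5 lower (9 and 3 at 2-fold). Tox, a nuclear factor of T cell development, read 0.25 and 0.34 on the Flt3+ arrays against -4.35 and -4.17 on the Flt3- arrays, Bach2, a repressor of B cell differentiation, differed by 2.63, and Ebf1, the B lineage factor, was at least 6.63-fold higher. The lower members included Zbtb16, the PLZF factor of innate lymphocytes and myeloid progenitors (-3.06), and Notch1, the receptor that directs T cell fate (-2.60). Notch1 read -0.45 and -0.30 on the Flt3+ arrays against 2.20 and 2.25 on the Flt3- arrays, so the T lineage receptor was the higher transcript in the granulocytic population.

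Stem cell, HOX and leukaemia-associated factors were mostly higher in Flt3+ GPs. 21 of 31 tested were higher and 3 lower, 14 and 1 at 2-fold, with a list median of 0.96 (0.42 with normexp background correction). Mn1, a coactivator found in acute myeloid leukaemia fusions, read 1.36 and 1.57 on the Flt3+ arrays against -5.86 and -5.64 on the Flt3- arrays, where it was not well above background, so that it was at least 106-fold higher (fitted adjusted p = 9.33e-07). Hoxa9 differed by 1.08, its cofactor Meis1 by 0.99, and Nkx2-3, a homeobox factor, by 2.65. Hoxa10 was at least 9.69-fold higher. Runx1 (0.24) was higher and Myb (-0.78) lower by less than 2-fold, and Runx1 lost its call under 7 of the 14 alternatives. Among them were the replicate block (adjusted p = 0.0564) and leaving out Flt3+ replicate 2 (0.14), Flt3- replicate 1 (0.21) or Flt3- replicate 2 (0.27).

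Factors of the erythroid and mast cell lineages were tested in 12 genes, 3 higher and 7 lower. At 2-fold 0 were higher and 2 lower, Gata1 and Cebpa (-1.28). Cebpa is also named above with the neutrophil factors. Gata1, the erythroid, eosinophil and mast cell factor, read -2.02 and -2.18 on the Flt3+ arrays against 1.85 and 1.85 on the Flt3- arrays, a difference of -3.95 (SE 0.23, adjusted p = 4.6e-05). Gata2, which acts upstream of it, differed by -0.87. Both GATA transcripts were thus the higher ones in Flt3- GPs.

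Azurophil granule genes were lower in Flt3+ GPs as a group. Of 30 tested, 26 were lower and 1 higher, 12 lower at 2-fold, and the list median was -0.76. Ms4a3, a membrane protein of granulocyte-monocyte progenitors, read 1.98 and 1.99 on the Flt3+ arrays against 7.30 and 7.27 on the Flt3- arrays, a difference of -5.30 (SE 0.0374, adjusted p = 1.89e-07). Prtn3, proteinase 3, read 4.53 and 4.51 on the Flt3+ arrays against 7.31 and 7.30 on the Flt3- arrays, and Ctsg, cathepsin G, read 7.65 and 7.63 on the Flt3+ arrays against 9.60 and 9.53 on the Flt3- arrays, differences of -2.78 and -1.92. Mpo, myeloperoxidase, read 8.98 and 8.75 on the Flt3+ arrays against 9.64 and 9.51 on the Flt3- arrays, a difference of only -0.71 (SE 0.118, adjusted p = 0.00295). The serine protease genes thus differed by more than the gene of the peroxidase in the same granule. Igsf6 (-3.31) and Hp, haptoglobin (-3.15), were among the other members with large differences. Hp is also listed with the specific and gelatinase granule genes below and counts in both lists. The azurophil list also holds genes other than those of granule contents, such as Ms4a3.

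Later granule genes were mixed. Of 27 specific and gelatinase granule genes 15 were lower and 5 higher, 9 and 3 at 2-fold. Pglyrp1, a peptidoglycan recognition protein, differed by -3.19, and Lcn2, which binds bacterial siderophores, by -2.76. Mmp8, neutrophil collagenase, was at least 6.13-fold higher in Flt3+ GPs and Retnlg, a resistin-like protein, differed by 2.14. Ltf, lactoferrin, read -2.62 and -2.64 on the Flt3+ arrays against -3.10 and -2.70 on the Flt3- arrays, and Camp, cathelicidin, read -1.13 and -1.26 on the Flt3+ arrays against -1.21 and -0.91 on the Flt3- arrays, neither past the test (adjusted p = 0.124 and 0.299). Leaving out Flt3- replicate 2 brought Ltf to 0.47 (adjusted p = 0.00844) and leaving out Flt3- replicate 1 brought Camp to -0.29 (adjusted p = 0.0372).

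Of 28 tested enzymes that make and handle oxidants, 19 were lower and 3 higher, with a median of -0.51 (-0.16 after quantile normalization). Alas1, the first enzyme of haem synthesis, differed by -2.72, Gsr, glutathione reductase, by -2.55, and Cybb, the catalytic subunit of the phagocyte oxidase, by -2.27. Gpx3 was at least 14.5-fold lower, and Prdx4, a peroxiredoxin of the endoplasmic reticulum, was the 1 member higher at 2-fold (1.31).

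The protein folding and translocation machinery of the endoplasmic reticulum was lower in Flt3+ GPs nearly throughout. Of 56 tested genes 52 were lower and 1 higher, 28 and 1 at 2-fold, and the list median was -1.0 against -0.12 over all genes. Hspa5, the BiP chaperone whose promoter is printed above, read 5.68 and 5.75 on the Flt3+ arrays against 7.15 and 7.08 on the Flt3- arrays, a difference of -1.40 (SE 0.0538, adjusted p = 1.03e-05). Sdf2l1, a BiP partner, read 1.96 and 2.13 on the Flt3+ arrays against 4.20 and 4.09 on the Flt3- arrays, a difference of -2.11 (SE 0.0715, adjusted p = 6.49e-06). P4hb, protein disulfide isomerase, differed by -1.59, and Ero1a, the oxidase that recharges it, by -1.73. The members span the translocon, signal peptidase, oligosaccharyltransferase and chaperones, and the 2-fold members came from each of these. The single higher member was Trib3, a pseudokinase induced by the stress factor ATF4, which read 0.01 and 0.28 on the Flt3+ arrays against -2.99 and -3.16 on the Flt3- arrays, a difference of 3.22 (SE 0.17, adjusted p = 3.22e-05). After quantile normalization the list median was -0.74 and 11 members were lower at 2-fold.

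**Figure D2:**
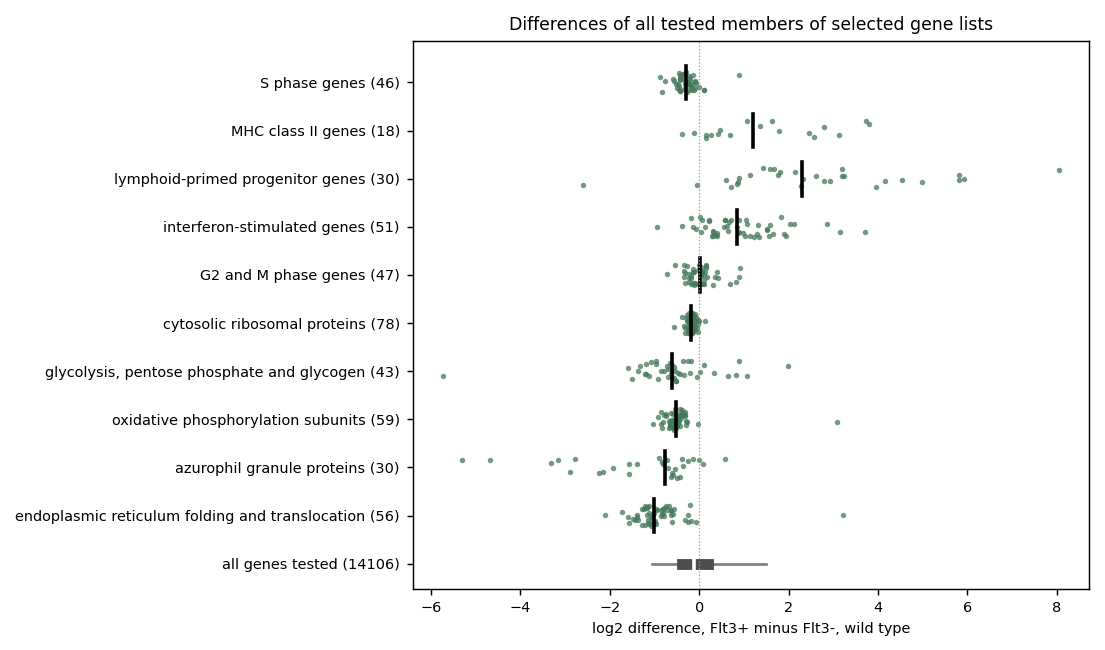
Log2 difference, Flt3+ minus Flt3- in wild type (horizontal axis), of every tested member of 10 gene lists (points, spread vertically for sight) with the list median (black bar); the lowest row gives all 14106 genes as their median, quartiles (25th to 75th percentile, thick line) and 5th to 95th percentile (thin line). The reticulum list sits around -1.0 and the lymphoid-primed list around 2.29, while the ribosomal protein and G2 and M phase lists sit close to the median of all genes.

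Metabolic genes were mostly lower in Flt3+ GPs, with list medians under 2-fold. Of 59 subunits of the respiratory chain and ATP synthase 57 were lower and 1 higher, yet only 1 was lower at 2-fold (Ndufab1, -1.03), and the median was -0.52 (-0.21 after quantile normalization). The higher one was Cox6a2, the heart and muscle form of a cytochrome oxidase subunit, which read 2.46 and 2.45 on the Flt3+ arrays against -0.59 and -0.66 on the Flt3- arrays, a difference of 3.08 (SE 0.0452, adjusted p = 6.78e-07). Of 43 genes of glycolysis, the pentose phosphate pathway and glycogen 34 were lower and 6 higher, 10 and 2 at 2-fold. Their median was -0.61, and -0.34 after quantile normalization. Pgd, which makes NADPH in the pentose phosphate pathway, differed by -1.59 and Hk3, a hexokinase of myeloid cells, by -1.50. Aldoc, an aldolase isoform, and Slc2a3, the glucose transporter GLUT3, were the members higher at 2-fold, at 2.00 and 1.06. Mgam, an intestinal maltase-glucoamylase, was at least 30.7-fold lower.

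Of 45 genes of nucleotide, serine and one-carbon synthesis 38 were lower and 2 higher (median -0.41, and -0.19 after quantile normalization). Gda, guanine deaminase, read -1.46 and -1.42 on the Flt3+ arrays against 4.41 and 4.40 on the Flt3- arrays, a difference of -5.85 (SE 0.0475, adjusted p = 1.89e-07), the largest fall of this list. Xdh, xanthine dehydrogenase, which acts after it in purine breakdown, differed by -2.61. Asns, asparagine synthetase, and Impdh1, of guanine nucleotide synthesis, differed by -1.25 and -1.13. Gda and Xdh act in purine breakdown and the other pair in synthesis, and all of these were higher in Flt3- GPs.

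Among 39 solute carriers 25 were lower and 5 higher, 8 and 3 at 2-fold. Slc40a1, the iron exporter ferroportin, differed by -3.18, Slc7a8, an amino acid exchanger, by -2.94, and Slc14a1, a urea transporter, by 2.14. In lipid metabolism, Mogat2, a monoacylglycerol acyltransferase, read -5.78 and -5.55 on the Flt3+ arrays against 1.53 and 1.47 on the Flt3- arrays and was at least 106-fold lower, and Dgat2, which completes triglyceride synthesis, differed by -3.09. Olr1, a scavenger receptor for oxidised lipoprotein, was at least 49.6-fold lower. Fads3, a desaturase-like gene, and Abca1, the cholesterol exporter, were higher at 3.01 and 1.80. Of 32 genes of cholesterol synthesis and uptake 15 were lower and 4 higher, 3 and 1 at 2-fold.

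Translation and cell cycle genes differed little. None of 78 ribosomal proteins, 46 S phase genes and 47 G2 and M phase genes was 2-fold apart. Of the S phase genes 36 were lower and 1 higher (median -0.30, and -0.07 after quantile normalization), and of the ribosome biogenesis and tRNA synthetase genes 47 of 54 were lower and 0 higher, with Nars, asparaginyl-tRNA synthetase, at -1.07. G2 and M phase genes split into 10 higher and 13 lower (median 0.01), a median whose sign turned when arrays were centred on their median (-0.04). The ribosomal protein median of -0.18 turned to 0.03 under quantile normalization. Mki67, a marker of cycling cells, read 5.56 and 5.72 on the Flt3+ arrays against 5.56 and 5.54 on the Flt3- arrays and did not pass the test (adjusted p = 0.299), although after quantile normalization it stood at 0.47 (adjusted p = 0.00114).

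Of 29 CDK inhibitors, D cyclins and members of the MYC network 13 were higher and 8 lower, 5 and 1 at 2-fold, with a median of 0.08. Mycn differed by 2.16 while Myc stood at -0.19 (adjusted p = 0.0307) and turned to 0.10 with no call (adjusted p = 0.134) under quantile normalization. Myc also lost its call without Flt3+ replicate 1 (-0.13), Flt3- replicate 1 (-0.17) or Flt3- replicate 2 (-0.21). Ccnd1, cyclin D1, differed by 1.48, Mxd3, a MAX partner, by 1.41, and Mlx, another member of that network, by -1.37. Of the death regulators, Bok stood at 1.75 and the receptor Fas at -1.65.

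The lymphoid-primed genes had the largest share of higher members among the lists with at least 20 tested. 28 of 30 tested were higher and 1 lower, 23 and 1 at 2-fold, with a median of 2.29. Il7r, the interleukin-7 receptor of lymphoid progenitors, read 0.04 and 0.13 on the Flt3+ arrays against -6.04 and -5.41 on the Flt3- arrays and was at least 39.7-fold higher. Rag1 and Rag2, the recombinase that cuts antigen receptor genes, read for Rag1 -0.52 and -0.78 on the Flt3+ arrays against -6.39 and -6.54 on the Flt3- arrays, at least 24.6-fold higher, and for Rag2 0.45 and 0.48 on the Flt3+ arrays against -1.84 and -1.79 on the Flt3- arrays, a difference of 2.28. Blnk, an adaptor of the B cell receptor, differed by 3.95. Lck, a T cell kinase, and Klrd1, an NK receptor chain, both of the T and NK cell list, differed by 2.93 and 3.48. Ly6d, a surface marker of B-biased lymphoid progenitors, read 0.77 and 0.87 on the Flt3+ arrays against -2.42 and -2.34 on the Flt3- arrays. The 1 lower member of the lymphoid-primed list was Notch1 (-2.60). In the T and NK cell list Nkg7 was lower (-2.14), a granule protein of cytotoxic cells that is also listed with the azurophil genes.

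B cell genes and T and NK cell genes were examined next. The largest differences in the B cell list were those of Rag1, Blnk, Ebf1 and Rag2, all named above. Its counts are therefore not those of mature B cell genes alone. Of 20 B cell genes 15 were higher and 1 lower, 13 and 0 at 2-fold, with summed signals of 31.0 and 32.6 on the Flt3+ arrays and 19.3 and 18.9 on the Flt3- arrays, in multiples of the 75th percentile. Their median of 1.50 fell to 0.71 with normexp background correction. Among the lymphocyte genes, Cd79a, part of the B cell receptor, read -4.42 and -4.99 on the Flt3+ arrays against -4.72 and -4.36 on the Flt3- arrays, and Cd3e, part of the T cell receptor complex, read 1.91 and 1.67 on the Flt3+ arrays against 1.73 and 1.78 on the Flt3- arrays, neither past the test (adjusted p = 0.549 and 0.754). One of the Flt3- arrays was not well above background for Cd79a, which stood at -0.32 (adjusted p = 0.034) with normexp background correction. Of 28 T and NK cell genes 13 were higher and 3 lower, 8 and 1 at 2-fold, with summed signals of 51.7 and 51.1 and 111 and 113. The T and NK sum is thus lower in Flt3+ GPs although more members were higher.

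**Figure D3:**
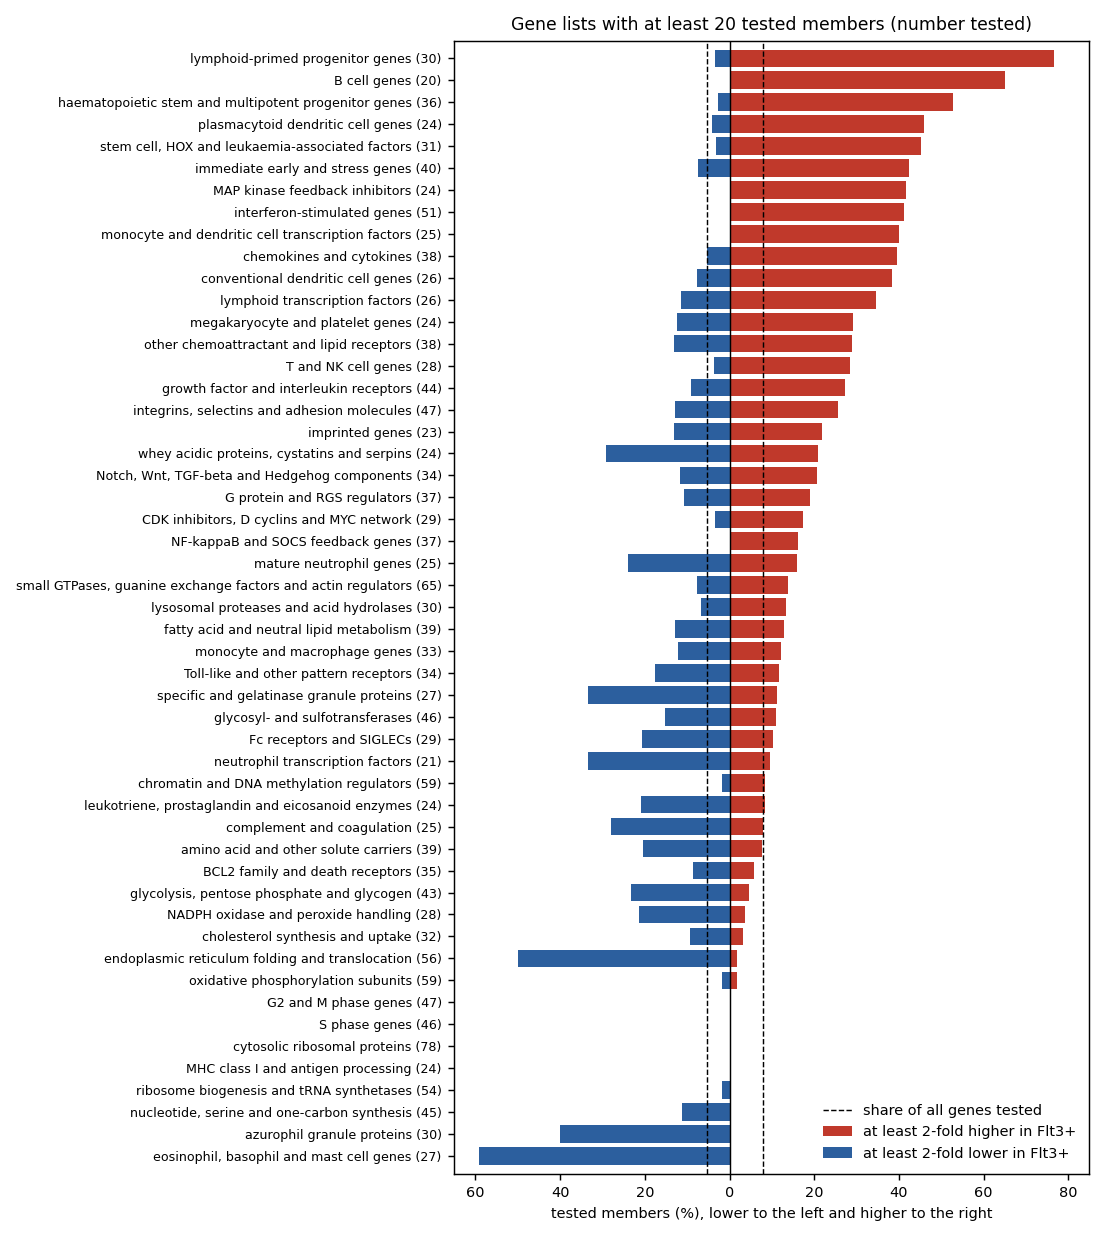
Share of tested members (horizontal axis, percent) that were at least 2-fold higher (right) or lower (left) in wild-type Flt3+ GPs, for the 51 gene lists with at least 20 tested members; dashed lines mark the shares over all genes tested, 7.79% higher and 5.22% lower. The lymphoid-primed list reaches farthest to the right, and the eosinophil, basophil and mast cell list and the reticulum list reach farthest to the left.

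Growth factor receptors lay on both sides. Of 44 growth factor and interleukin receptors 22 were higher and 15 lower, 12 and 4 at 2-fold. Csf3r, the G-CSF receptor of granulocytes, read 7.53 and 7.35 on the Flt3+ arrays against 7.42 and 7.39 on the Flt3- arrays and did not pass the test (adjusted p = 0.728), although after quantile normalization it stood at 0.30 (adjusted p = 0.0044). Csf1r, the M-CSF receptor, differed by 0.35, and the GM-CSF receptor chains Csf2ra and Csf2rb by -0.88 and -1.09. Il1r1, the interleukin-1 receptor, read 2.80 and 2.89 on the Flt3+ arrays against -0.75 and -0.77 on the Flt3- arrays, a difference of 3.60 (SE 0.0637, adjusted p = 8.99e-07). Il1rl1, the interleukin-33 receptor, read -3.35 and -3.20 on the Flt3+ arrays against 1.01 and 0.98 on the Flt3- arrays, a difference of -4.27 (SE 0.114, adjusted p = 3.23e-06). The receptors for these related cytokines therefore lay on opposite sides. Lifr, the leukaemia inhibitory factor receptor, was at least 8.62-fold higher, and Ifngr1, the interferon gamma receptor, and Il5ra, of eosinophils, differed by -1.65 and -0.62.

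Among chemoattractant receptors, Ccr9, which binds CCL25 of the thymus and gut, read 0.73 and 0.70 on the Flt3+ arrays against -4.34 and -4.18 on the Flt3- arrays, a difference of 4.98 (SE 0.107, adjusted p = 1.59e-06). Ccr7, which guides cells to lymph nodes, differed by 4.84, with 1 of the 2 Flt3- arrays well above background, and Cxcr3 by 1.80. Cxcr2, which brings neutrophils out of the marrow, was lower (-1.13). Cxcr4, the marrow retention receptor, and Ccr2, of monocytes, stood at 0.15 and -0.17, and both lost their call under 8 of the 14 alternatives. Leaving out any 1 of the wild-type arrays did so, with values of 0.12 to 0.18 for Cxcr4 and -0.20 to -0.13 for Ccr2, and the replicate block did so for Cxcr4 (adjusted p = 0.0527). Ccr3 read -4.18 and -2.60 on the Flt3+ arrays against -4.12 and -3.85 on the Flt3- arrays and did not pass the test (adjusted p = 0.346), and without Flt3+ replicate 1 it stood at 1.38 (adjusted p = 0.00967). Tbxa2r, the thromboxane receptor, read 2.51 and 2.64 on the Flt3+ arrays against -2.42 and -2.67 on the Flt3- arrays, 34.9-fold higher in Flt3+ GPs, and P2ry10, a lysophospholipid receptor, differed by 3.34. Ltb4r1, the leukotriene B4 receptor of neutrophils, and Adgre5, an adhesion receptor, differed by -2.74 and -2.31.

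Leukotriene and other eicosanoid enzymes lay on both sides. Alox5, 5-lipoxygenase, read -2.89 and -2.86 on the Flt3+ arrays against 1.24 and 1.33 on the Flt3- arrays, a difference of -4.16 (SE 0.13, adjusted p = 5.16e-06), and Mgst2 differed by -1.95. Ggt5, which converts leukotriene C4 to D4, was higher (2.68). Hpgds, haematopoietic prostaglandin D synthase, was at least 3.97-fold higher in Flt3+ GPs. Over the list of 24 enzymes 12 were lower and 5 higher, where 39.2% of all genes tested were lower and 22.6% higher.

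Pattern recognition and Fc receptors included large differences in both directions. Fcgr3, the low-affinity IgG receptor, read -0.92 and -0.84 on the Flt3+ arrays against 3.76 and 3.67 on the Flt3- arrays, a difference of -4.60 (SE 0.0575, adjusted p = 5.31e-07). Trem3, an activating receptor of myeloid cells, differed by -4.42, Cd14, the endotoxin coreceptor, by -2.87, and Clec4b2 was at least 3.96-fold lower. Clec9a, a receptor of dendritic cells for dead cells, was at least 3.69-fold higher. Ly86, a partner of the Toll-like receptor homologue CD180, read 3.94 and 3.96 on the Flt3+ arrays against 3.62 and 3.60 on the Flt3- arrays and did not pass the test (adjusted p = 0.0603), but passed with the same sign under 6 of the 14 alternatives, with the replicate block among them (adjusted p = 0.047). Of the Fc receptor and SIGLEC list 13 of 29 were lower and 3 higher, 6 and 3 at 2-fold. Of 34 Toll-like and other pattern receptors 9 were higher and 11 lower, 4 and 6 at 2-fold. With normexp background correction 0 of the pattern receptors were higher at 2-fold.

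Adhesion molecules included some of the largest falls. Prom1, the CD133 membrane protein often used as a stem cell marker, read -3.92 and -3.93 on the Flt3+ arrays against 2.30 and 2.30 on the Flt3- arrays, a difference of -6.23 (SE 0.0597, adjusted p = 2.7e-07), so it was the lower transcript in the Flt3+ population. Ncam1, a neural adhesion molecule, and Vcam1, the ligand of the integrin VLA-4, differed by -5.06 and -3.02. Itgax, the CD11c integrin of dendritic cells, differed by 2.91, and Ly6c1 by -2.89. Over the 47 integrins, selectins and adhesion molecules 19 were higher and 17 lower.

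Of 38 chemokine and cytokine genes 19 were higher and 10 lower, 15 and 2 at 2-fold. Ccl3 and Ccl4, which attract monocytes and lymphocytes, read for Ccl3 2.11 and 2.08 on the Flt3+ arrays against -2.04 and -2.20 on the Flt3- arrays, a difference of 4.21, and differed for Ccl4 by 3.51. Ltb, lymphotoxin beta, differed by 3.25, and Vegfa, the vascular growth factor, by -2.29. C3, the central complement component, read 0.63 and 0.78 on the Flt3+ arrays against 5.06 and 5.07 on the Flt3- arrays, a difference of -4.36 (SE 0.0589, adjusted p = 5.31e-07), and Cfd, which activates its alternative pathway, differed by -3.59. Serpine2, a thrombin inhibitor, differed by -5.05. Wfdc17 (5.92) and Wfdc21 (-5.07), small whey acidic proteins of the same family, lay at opposite ends.

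Sugar-modifying enzymes also lay at both ends. The sialyltransferases St3gal6 and St6gal1 were higher, at 3.33 and at least 5.82-fold, with 1 of the 2 Flt3- arrays well above background for St3gal6, and St8sia6 was at least 9.82-fold lower. Chst13, a chondroitin sulfotransferase, differed by -6.60, with 1 of the 2 Flt3+ arrays well above background. Over the list 16 of 46 were higher and 22 lower.

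MHC class II genes were higher in Flt3+ GPs in 14 of 18 cases and lower in 1. H2-Eb1, a class II beta chain, read 0.84 and 0.94 on the Flt3+ arrays against -2.99 and -2.86 on the Flt3- arrays, and H2-Ob, a chain of the peptide exchange inhibitor, differed by 2.80. Of 24 class I and antigen processing genes none was 2-fold apart, 13 were higher and 2 lower. Interferon-stimulated genes were higher in 41 and lower in 3 of 51 cases, 21 higher at 2-fold. Ifit3, whose promoter is printed above, read -1.94 and -1.79 on the Flt3+ arrays against -4.62 and -4.85 on the Flt3- arrays, a difference of 2.86 (SE 0.215, adjusted p = 0.000125). Ifi44 read 1.15 and 1.18 on the Flt3+ arrays against -2.49 and -2.58 on the Flt3- arrays, and Ifi27l2a and Rtp4 differed by 3.15 and 2.12.

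Of 24 feedback inhibitors of MAP kinases 18 were higher and 1 lower, 10 higher at 2-fold. Rasal1, a Ras GTPase activator, was at least 26.8-fold higher, and the MAP kinase phosphatases Dusp5 and Dusp2 differed by 2.35 and 1.52, Dusp5 with 1 of the 2 Flt3- arrays well above background. Of 40 immediate early and stress genes 26 were higher and 11 lower. Egr1, the early growth response factor, read 3.30 and 3.38 on the Flt3+ arrays against 1.05 and 1.23 on the Flt3- arrays, Zfp36, which destabilises cytokine mRNA, differed by 2.67, and Gadd45b, a stress sensor, by -1.52. Of 37 NF-kappaB and SOCS feedback genes 22 were higher and 7 lower, 6 higher at 2-fold, with a median of 0.35. Socs2 and Cish, inhibitors of JAK-STAT signalling, differed by 2.70 (1 of the 2 Flt3- arrays well above background) and 1.84, and Nfkbiz, an NF-kappaB regulator, by 2.61.

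In G protein and kinase signalling, Camk1d, a calmodulin-dependent kinase, read 1.89 and 1.92 on the Flt3+ arrays against -2.41 and -2.61 on the Flt3- arrays, a difference of 4.42 (SE 0.0751, adjusted p = 8.65e-07). Prkcb, protein kinase C beta, differed by -2.61 and Rgs3 by 1.82. Over the list 16 of 37 were higher and 11 lower. In chromatin regulation 5 of 59 genes were 2-fold higher and 1 lower, where 7.79% and 5.22% of all genes tested were. Single members were the deacetylases Hdac9 and Hdac11 at 3.03 and 2.04 and the chromatin organiser Satb1 at 1.77. Of imprinted genes, Igf2r stood at 3.26 and Ascl2 at -2.32. Ddx4, the germ cell helicase VASA, read 1.51 and 1.59 on the Flt3+ arrays against -3.51 and -5.38 on the Flt3- arrays, a difference of 6.0 (SE 0.567, adjusted p = 0.000301), with 1 of the 2 Flt3- arrays well above background.

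Of 65 small GTPases, exchange factors and actin regulators 23 were higher and 23 lower, 9 and 5 at 2-fold. Emp1, an epithelial membrane protein listed with them, read 2.67 and 2.60 on the Flt3+ arrays against -4.56 and -4.15 on the Flt3- arrays, 127-fold higher in Flt3+ GPs (adjusted p = 9.79e-07), and Rhou, a small GTPase, was at least 36.2-fold lower. Other wide differences fell outside the lists. Slc35d3, a sugar transporter-like protein of platelet granules, differed by 5.71, Gas6, the ligand of TAM receptors, by 4.83, and Myl10, a myosin light chain, by 4.65. Sgsm1 was at least 70.7-fold higher and Cmah, which makes the sialic acid Neu5Gc, at least 28.1-fold higher. On the other side, Hsd11b1, which regenerates active glucocorticoid, read -2.79 and -2.95 on the Flt3+ arrays against 2.56 and 2.55 on the Flt3- arrays, a difference of -5.43 (SE 0.0714, adjusted p = 5.31e-07). Celsr3, a planar polarity cadherin, and Prl2c1 differed by -5.19 and -5.07; Prl2c1 belongs to a family of near-identical copies, so its identity is uncertain. Ccno, an atypical cyclin of multiciliated cells, was at least 29.0-fold lower.

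Markers of other cell types were examined because the gate is given only by Flt3. The list of eosinophil, basophil and mast cell genes was lower in Flt3+ GPs in 20 of 27 cases and higher in 2, with summed signals of 59.0 and 60.1 on the Flt3+ and 203 and 203 on the Flt3- arrays. Hdc, the enzyme that makes histamine, read 0.74 and 0.83 on the Flt3+ arrays against 6.11 and 6.13 on the Flt3- arrays, Cpa3, the mast cell carboxypeptidase, read 1.49 and 1.64 on the Flt3+ arrays against 5.55 and 5.50 on the Flt3- arrays, and Epx, eosinophil peroxidase, differed by -2.70. Of the defining mast cell markers, Cma1 and Mcpt4 had no array well above background. Their part in the lower signal of Gata1 and Il1rl1 was not tested.

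Erythroid genes were higher in 8 and lower in 4 of 18 cases, 7 and 1 at 2-fold, with a median of 0.16. Their summed signals were 85.8 and 88.0 in Flt3+ and 38.1 and 38.3 in Flt3- GPs. Hbb-bt, a beta globin of a near-identical family, stood at 1.84, and its relatives Hbb-b2 and Hbb-bs at 1.72 and 1.66. The sums can thus count the same signal more than once. Alas2, a defining erythroid marker that is not a globin, differed by 1.55, and Epor went the other way (-1.24). Megakaryocyte and platelet genes were higher in 11 and lower in 7 of 24 cases, with Mmrn1 at 3.11, Pf4 at 1.40 and Itga2b, the platelet integrin, at -1.94. Stem and multipotent progenitor genes were higher in 28 and lower in 2 of 36 cases, with Procr, Robo4 and Emcn at 2.61, 3.28 and 2.27, while Slamf1 had no array well above background. Their summed signals were 597 and 622 in Flt3+ and 342 and 336 in Flt3- GPs.

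Conventional dendritic cell genes were higher in 13 and lower in 9 of 26 cases (sums of 397 and 399 against 387 and 375), and on none of the arrays was their defining marker Xcr1 well above background. That list includes Flt3 itself (4.54), so its count and its sums are not independent of the sort. Plasmacytoid dendritic cell genes were higher in 12 and lower in 3 of 24 cases (sums of 473 and 445 against 298 and 312). That list includes Dntt (8.04), given above as a gene of lymphoid precursors, so its sums do not stand for plasmacytoid dendritic cells alone. Siglech, the defining marker of those cells, read 7.70 and 7.45 on the Flt3+ arrays against 7.51 and 7.62 on the Flt3- arrays and did not pass the test with its brightest probe (adjusted p = 0.917), whereas the mean of its probes differed by 1.24 (adjusted p = 7.99e-05), so its probes disagree. Monocyte and macrophage genes were split 10 higher to 12 lower (sums of 378 and 364 against 337 and 335), with Adgre1, the F4/80 macrophage receptor, at -1.79. Mature neutrophil genes were higher in 6 and lower in 10 of 25 cases (sums of 231 and 209 against 292 and 290.4), and Ly6g was not analysed here. Over all genes tested, 22.6% were higher and 39.2% lower. What share of these differences comes from admixed cells was not tested.

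Noncoding probes were examined as well. At 2-fold 571 of 7291 probes of long intergenic noncoding intervals differed (7.83%), 378 higher (5.18%) and 193 lower (2.65%) in Flt3+ GPs. Of 673 probes with a noncoding RNA accession 63 differed (9.36%), 45 higher (6.69%) and 18 lower (2.67%). Of 18737 probes with an mRNA accession 2296 differed (12.3%), and of all 32665 probes kept 3460 did (10.6%). Whether these shares differ beyond signal level was not tested.

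The difference in experiment 1 and that in experiment 2 correlated across the 14106 genes at r = 0.904, which is a description over genes that share arrays' normalization. All 1835 genes that were 2-fold apart had the same sign in both experiments, which passing the test largely fixes, and 1640 of them were at least 2-fold apart in each. In 683 genes the difference was at least 4-fold, 432 higher and 251 lower, and in 111 higher and 69 lower it was at least 10-fold. Of the 2-fold genes, 290 of the higher ones were not well above background on either Flt3- array and 114 of the lower ones on either Flt3+ array.

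The same sort from mice labelled Irf8KO allowed the difference to be read a second time. The differences of the genotypes come from separate arrays. Their tests are not independent, because 1 fit over all 8 arrays gave both with a shared spread and a shared probe filter. On those arrays the Irf8 probe read 6.67 and 6.67 with Flt3+ and 5.64 and 5.53 with Flt3- cells, above the 5.80 and 5.87 and the 4.85 and 4.88 of the wild-type arrays. Its place relative to the deletion is not known here, and the genotype rests on the labels alone. Of the 1835 genes, 1783 had the same sign there and 1625 also passed the test in that direction, and across all genes the differences correlated at r = 0.832. In 298 of the 1835 genes the size of the difference itself differed between genotypes by at least 1, past the test of the interaction; over all genes 429 did so (3.04%). Elane differed by -4.68 in wild type and -2.83 on the arrays labelled Irf8KO, and Trem3 by -4.42 and -1.36. Ly6d differed by 3.20 in wild type and 7.66 on the arrays labelled Irf8KO, and Vcam1 by -3.02 and -6.29. Clec9a was higher in wild-type Flt3+ GPs (fitted difference 3.31) and stood at -0.32 on the other arrays. The median of the reticulum list was -1.0 in wild type and -0.63 on the arrays labelled Irf8KO, and that of the respiratory list -0.52 and -0.10. That of G2 and M phase genes was 0.01 and 0.76. The difference of these list medians between genotypes was not tested.

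**Figure D4:**
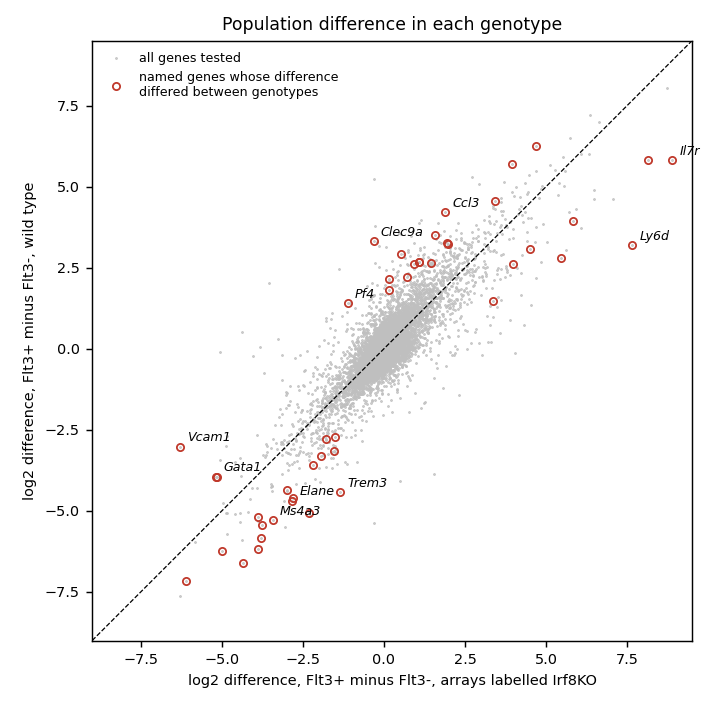
Log2 difference, Flt3+ minus Flt3-, in wild type (vertical axis) against the same difference on the arrays labelled Irf8KO (horizontal axis) for all 14106 genes (grey); open circles are named genes whose difference differed between genotypes, and the dashed line marks equal differences. Dim genes are plotted at their fitted values. Elane, Ms4a3 and Trem3 lie below the line on the left, so their wild-type difference is the wider one, and Ly6d and Il7r lie below it on the right.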

How the data were processed

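The samples, RNA of sorted granulocyte progenitors, were hybridised to 8 Agilent arrays in 1 colour (Cy3), grouped by their sample titles into 4 groups of 2. A micro column kit for extraction and a low-input amplification kit for labelling were used, per the labels' protocols. Per the file headers, the deposited intensities were extracted with Agilent Feature Extraction 10.7.3.1 and were not scaled between arrays. The columns used were the processed signal, the median brightness of spot and local background, and the deposited flags (0 or 1) for spots well above background and for outliers. The values of the deposited series table equal the authors' processed signal times 1 factor per array (0.672 to 1.33), with a 75th percentile of 426.2 in each column and medians of 26.9 to 29.9. The sources used here do not say how that table was made. Some genes are not reported here.

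Control spots and 93 to 178 outlier spots per array were removed, repeated spots were averaged by probe, and each value is log2 of the intensity minus the array's 75th percentile (321 to 634). Probes that both arrays of some group measured well above background were kept, after 19 probes with a missing value were dropped. Names came from RefSeq accessions in a table of assembly GRCm38.p6. Of 55681 probes 26762 were named and 1628 carried an accession that matched no gene. For the 5405 genes with several probes, the brightest stood for the gene, which left 14106 genes. All arrays lay on slide 1 in scan 1, and Flt3+ and Flt3- arrays lay in separate slide columns, so position and group cannot be told apart.

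A mean for each group was fitted over all 8 arrays with limma 3.58.1 (R 4.3.3), moderated by eBayes (residual df 4, prior df 1.765), and p-values were adjusted by Benjamini-Hochberg. On simulated data with 50 genes changed at each size, the fit for this comparison made 1 false call at 2-fold. It recovered 50, 45, 48 and 48 genes at true log2 differences of -3, -1.5, 1.5 and 3. The simulation shuffled the spreads among genes and changed far fewer genes than passed the test in the data. Its recovery need not hold for dim probes, and false calls under 2-fold are not given. The experiment number of the titles was fitted as a replicate block as an alternative; the deviations of same-numbered arrays correlated between groups at -0.0283 to 0.123 across genes. The other alternatives were background correction (normexp on the median spot signal, offset 50), scaling, the filter on dim probes, the probe rule, the samples fitted, the moderation, the deposited table and leaving out each wild-type array. The named genes were taken from a rule: key lineage genes, the 10 highest and 10 lowest differences, the 5 largest bounds each way, and up to 4 leading members of each of 58 gene lists with up to 2 in the rarer direction. The members, lists and rule were chosen with earlier results of these data known. No test was run over a list.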

Additional observations from a re-analysis of the deposited data

Results flagged for a closer look

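The interaction was read for 190 of the genes named. Of these, 46 had a difference between Flt3+ and Flt3- GPs that itself differed between wild type and the arrays labelled Irf8KO. The limits were an adjusted p under 0.05 for the interaction in limma and a size of at least 1. Each value in parentheses is the wild-type difference minus that on the arrays labelled Irf8KO, on the log2 scale. The adjusted p of these interactions ran from 0.000116 to 0.0374, and Dixon's rule for samples that stand apart was not applied because each group holds 2 arrays. Many of the named genes were chosen for large wild-type differences, which favours a wider difference in wild type, so these counts are a description only. Over all 429 genes past the same limits, the fall was larger in wild type for 129 and on the arrays labelled Irf8KO for 42, and the rise for 195 and 63. A fall or rise was set by the sign of the wild-type difference alone, which need not have passed the test. The classes larger in wild type can thus hold genes with the opposite sign on the arrays labelled Irf8KO.

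The fall in Flt3+ GPs was larger in wild type for 18 genes. They were Trem3 (-3.06), Wfdc21 (-2.75), Rhou (-2.30), Chst13 (-2.25), Gda (-2.04), Ms4a3 (-1.87), Elane (-1.85), Fcgr3 (-1.81), Hsd11b1 (-1.67), Hp (-1.60), Cfd (-1.42), C3 (-1.37), Igsf6 (-1.36), Celsr3 (-1.31), Prom1 (-1.23), Alas1 (-1.21), Mogat2 (-1.05), Prtn3 (-1.01). The fall was larger on the arrays labelled Irf8KO for 3 genes, Gata1 (1.22), Vcam1 (3.27), Cpa3 (1.18).

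The rise was larger in wild type for 17 genes. They were Clec9a (3.63), Pf4 (2.52), Maf (2.39), Ccl3 (2.32), Retnlg (1.97), Ccl4 (1.92), Slc35d3 (1.75), Nfkbiz (1.68), Cxcr3 (1.64), Zfp36 (1.60), Ggt5 (1.60), Sgsm1 (1.58), Egr1 (1.48), Igf2r (1.30), Ltb (1.26), Nkx2-3 (1.20), Tox (1.12). In Clec9a and Pf4 the differences had opposite signs, at 3.31 and 1.40 in wild type against -0.32 and -1.12 on the arrays labelled Irf8KO. The rise was larger on the arrays labelled Irf8KO for 8 genes. They were Ly6d (-4.45), Il7r (-3.08), Ebf1 (-2.65), Rag1 (-2.32), Blnk (-1.89), Ccnd1 (-1.88), Cox6a2 (-1.42), Mmp8 (-1.35). Genes that were not well above background in one population, such as Il7r, Rag1, Rhou and Mogat2, enter here with fitted values.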

How the results depend on the processing

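Of 8727 genes past the test, the alternatives gave 7190 to 9128, and of 1835 genes 2-fold apart they gave 1005 to 1909. The 2-fold count fell to 1005 (509 higher) with normexp background correction, a setting that changes both the signal column (to the median spot signal) and the background step, and to 1077 (640 higher and 437 lower) with limma's treat against a log2 difference of 1. The 2-fold genes higher in Flt3+ GPs fell to 728 when a probe had to be well above background on all 4 wild-type arrays, a filter that removes genes dim in one population. Leaving out each wild-type array gave 7190 to 8184 genes past the test and 1803 to 1828 at 2-fold, with the lone remaining array assumed to vary like the other groups. With the experiment number as a replicate block 8782 genes passed, 3201 higher and 5581 lower, and 1823 were 2-fold apart. Among the 190 named genes that were recomputed, the block changed the call of Klf4, Runx1, Cxcr4 and Ly86 and of no other.

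Of 2631 recomputed values of named genes 2 reversed, Zeb2 to 0.27 with all its probes averaged and Myc to 0.10 under quantile normalization, neither called there; the cause was not tested. A further 37 lost a call and 15 gained one. Of the list counts at 2-fold, 81 of 1624 moved by over 1.5 times. With 2 arrays per group, signals near background limit what can be said: a difference there is a bound, and its size depends on the background correction.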
